A study of Danio rerio with 54 samples.

Results

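Genes of mature neurons and their synapses were followed in whole zebrafish larvae that were chilled to 10 °C and, in some groups, returned to 28 °C. The set holds 38 genes chosen by name, of 30097 gene IDs in the expression table: 14 genes of transmitter release from vesicles, 10 that make or carry transmitters, 9 for receptors and their scaffold, and 5 of axons, adhesion and the cell body. Each gene was read from the gene ID that carries its name, and where several IDs share a name, from the one with the highest mean level. All 38 were found, and all 38 passed the limit for an expressed gene, which 25387 IDs did: no sample under 1 TPM in 1 or more of the groups. TPM is the share of a library's transcripts that a gene takes after correction for length, scaled to the same total in each library.

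The larvae were of the AB strain, reared at 28 °C, and each sample is the RNA of whole bodies. Untreated larvae (ctrl) were taken at 96, 97, 98, 102, 108 and 132 hours post fertilization (hpf). Larvae of the lc groups went to 10 °C at 96 hpf and stayed there for 1, 2, 6, 12 or 24 h, so that lc_24h was 120 hpf old. Larvae of the re groups had 12 h at 10 °C and then 1, 2, 6, 12 or 24 h at 28 °C, which makes re_24h 132 hpf old. The er groups had 24 h at 10 °C followed by 24 h at 28 °C and were 144 hpf old. They were sorted by their state into larvae that swam normally (er_nor) and larvae that had lost their balance (er_ab). Each of the 18 groups has 3 samples. Larvae found dead at sampling were left out, so the er groups describe survivors of recovery, while it is not known which larvae of the lc groups would have lived through rewarming. The groups er_ab and er_nor were separated by an outcome of the cold and not by treatment. No untreated group had the age of lc_24h, er_nor or er_ab.

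A neuron signals by fusing transmitter-filled vesicles with its membrane, and receptors on the next cell turn the transmitter into current. Glutamate is the main exciting transmitter, GABA and glycine the main inhibiting ones, and acetylcholine drives the muscles of the body. In the larval hindbrain and spinal cord, glycine and GABA shape the alternating movements of swimming. Cold slows both ion channels and vesicle fusion in fish neurons.

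TPM values sum to between 998493 and 999530 in each sample over the genes of the table. Counts behind them were not used here, so precision is known only from the spread between samples. Pairs of samples of 1 group correlated at r of 0.9724 to 0.9814 over expressed genes. Nothing in the labels says whether the 3 samples of a group came from separate clutches, and p-values measure only the spread between these samples. A gene is called below when 2 conditions held in limma's fit of log2(TPM + 1) to all 54 samples: the fold change reached 1.5, and the p-value, adjusted over all expressed genes, did not exceed 0.05. Log2 fold changes are on that scale, with their standard error, and understate the change of low genes. Nervous tissue was present in every sample, since elavl3, an RNA-binding protein of neurons, had group means from 79.6 TPM (er_nor) to 106 TPM (ctrl_97hpf). Other neuron markers ranged more widely. Group means went from 53.5 TPM (re_1h) to 107 TPM (ctrl_96hpf) for elavl4 and from 61.4 TPM (er_ab) to 131 TPM (lc_12h) for stmn2a. For stmn1b they went from 197 TPM (re_1h) to 315 TPM (ctrl_132hpf). A steady share of neurons is therefore not shown by elavl3. In 1 sample, ctrl_98hpf replicate 1, the 38 genes summed to 1866 TPM, against 2395 and 2413 TPM in its 2 companions. No gene of the set was called in either comparison with ctrl_98hpf, with or without that sample.

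Among vesicle genes, sncb (beta-synuclein, a small presynaptic protein) was the most abundant, with 434, 428 and 404 TPM in ctrl_96hpf. The SNARE genes snap25a and snap25b, whose protein pulls vesicle and membrane together, had means of 162 and 164 TPM there. Of the 2 calcium sensors of release, syt1a stood near 111 TPM and syt1b near 2.97 TPM. Among the transmitter genes slc6a1b, the transporter that clears GABA, led with 108, 107 and 102 TPM, and th, which starts the synthesis of dopamine and noradrenaline, was lowest with 4.63, 4.67 and 3.77 TPM. The highest receptor gene was grin1b, an obligatory NMDA receptor subunit, with 76.95, 83.2 and 76.3 TPM. Of the axon genes, gap43, a protein of growing axons, had 124, 118 and 119 TPM. These levels are ordered across genes per unit of transcript length.

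**Figure D1:**
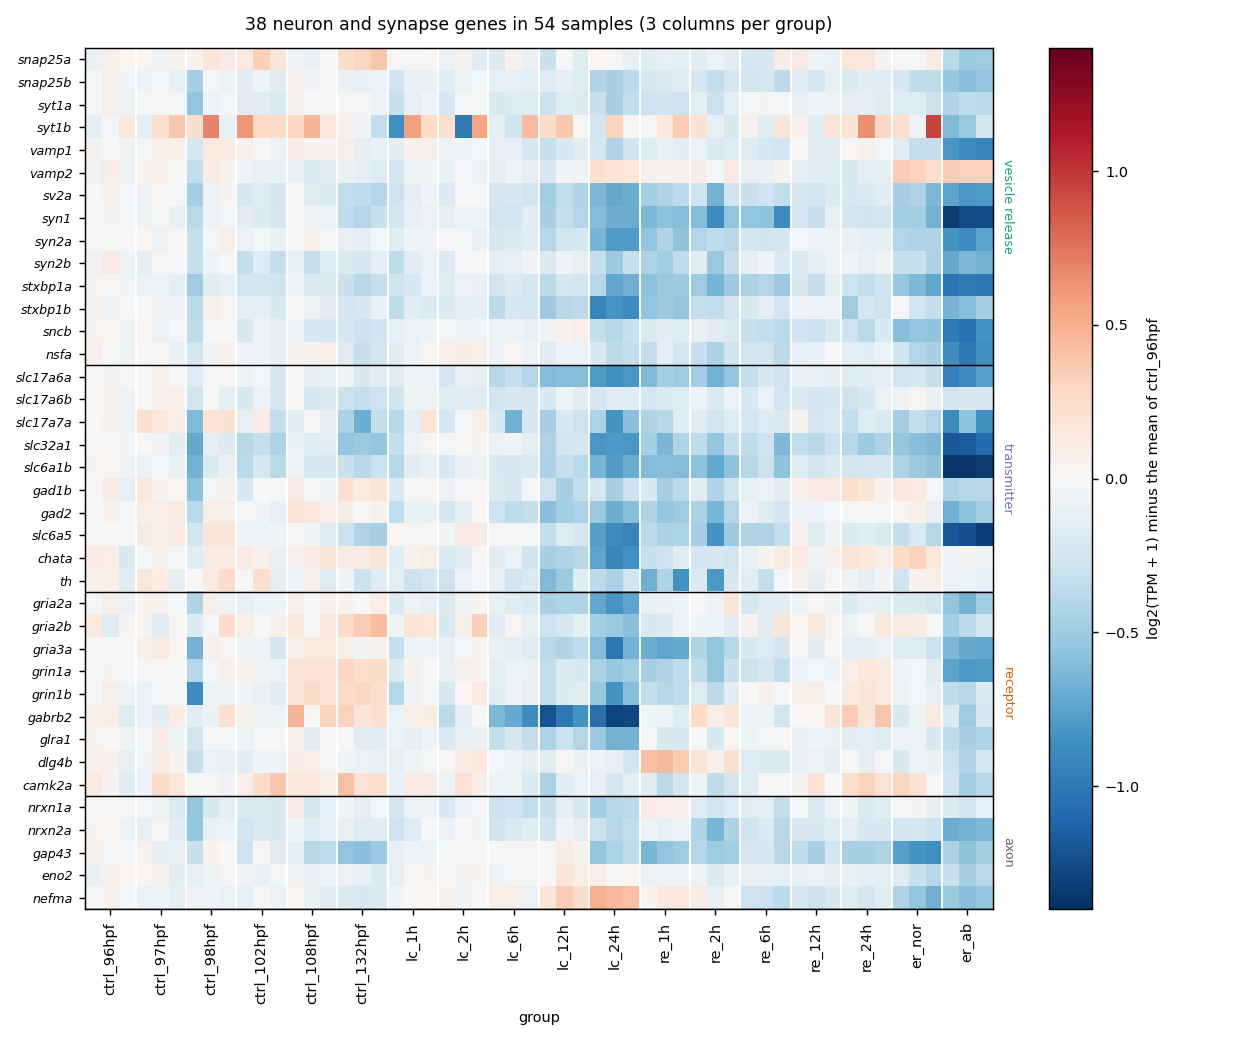
Heat map of the 38 genes (rows, in the order of their roles) in 54 samples (columns, 3 for each of 18 groups). Colour gives log2(TPM + 1) minus the mean of ctrl_96hpf, from -1.4 (blue) to 1.4 (red). The darkest blue columns are those of er_ab, where 24 of 38 genes had their lowest group mean, and of lc_24h, where 10 had it. How many of all expressed genes had their lowest group mean there was not counted.

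The set moved little while untreated larvae grew. None of the 38 was called against ctrl_96hpf at 97, 98, 102, 108 or 132 hpf, while 0.24%, 0.205%, 1.37% and 2.5% of all expressed genes were called at the first 4 of these ages, and 4.13% were called higher and 8.28% lower at 132 hpf. By an unadjusted p under 0.05, limma gave 0, 11, 15, 9 and 23 genes of the set at these ages. At 132 hpf 17 of them also had an adjusted p of at most 0.05 without reaching the fold, 4 higher and 13 lower, beside 11.1% and 26.5% of all genes. Samples of 132 hpf lay wholly below those of 96 hpf for 20 genes and wholly above for 6. The shares of all genes were 32.9% and 15.4%. Median changes at 132 hpf were -0.24 for transmitter genes, -0.16 for vesicle genes, -0.15 for axon genes and 0.25 for receptor genes. With libraries rescaled by the median of ratios they were -0.14, -0.06, -0.05 and 0.35. The median of the set was -0.12 as deposited, -0.02 under the median of ratios and 0.05 under quantile normalization. A direction of the set at 132 hpf is therefore not given. Counts with no fold minimum and of groups without overlap were not repeated on those scales. How many of all genes had an unadjusted p under 0.05 was not counted. Here and in later comparisons, counts by an unadjusted p thus have no background to be set against. The growth gene gap43 went from a mean of 120 TPM to 81.7, 79.7 and 84.0 TPM at 132 hpf (log2 -0.55 ± 0.07, adjusted p = 2.56e-08). All 3 samples of 132 hpf lay below all 3 of 96 hpf. The gene snap25a went the other way, to 192, 199 and 211 TPM (log2 0.31 ± 0.07), again without overlap. The genes gria2b (an AMPA receptor subunit), grin1a (the other NMDA receptor copy) and camk2a (a kinase of the postsynapse) also had higher values at 132 hpf, with log2 changes of 0.35 ± 0.10, 0.26 ± 0.07 and 0.28 ± 0.10.

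In the first hours of cold, no gene of the set was called. At 1 and 2 h the count was 0 of 38 against ctrl_96hpf and 0 of 38 against controls of the same age, where limma called 0.284% and 0.748% of all genes in the former and 0.571% and 1.14% in the latter. Unadjusted p-values under 0.05 were found for 9 and 2 genes against ctrl_96hpf and for 8 and 9 against the same-age controls. At an adjusted p of at most 0.05 with no fold minimum, the counts were 0 and 0 against ctrl_96hpf. Against the same-age controls they were 0 and 2. The shares of all genes were 0.721% and 1.65% in the former and 1.95% and 4.43% in the latter.

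The first gene to be called was gabrb2, the beta-2 subunit of the GABA-A receptor, the chloride channel that GABA opens. The table names it gabrb2a. It held 15.4, 15.4 and 12.7 TPM in ctrl_96hpf and 15.08, 13.9 and 13.8 TPM in ctrl_102hpf. After 6 h of cold it stood at 8.99, 8.45 and 7.44 TPM, below every control sample. Against ctrl_102hpf this was a log2 change of -0.72 ± 0.12 (adjusted p = 7.41e-06), in a comparison where limma called 3.68% of all genes lower and 3.32% higher. Against ctrl_96hpf it was the 1 gene called as well, beside 2.19% of all genes called lower and 2.65% higher. Without the fold minimum, 12 genes of the set at 6 h were lower than in ctrl_96hpf and 6 lower than in ctrl_102hpf at an adjusted p of at most 0.05, beside 14.5% and 17.2% of all genes. After 12 h it reached 5.65, 6.69 and 7.63 TPM, against 20.5, 14.3 and 18.2 TPM in ctrl_108hpf (log2 -1.28 ± 0.12, adjusted p = 5.21e-12), and after 24 h it was at 6.42, 5.27 and 5.40 TPM. The groups of 12 h and 24 h overlapped, and the step between them was not called.

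This fall belongs to 1 of 2 gene IDs. The other, named only as a further copy of GABRB2, had 3.096, 5.14 and 4.24 TPM in ctrl_96hpf and 9.36, 6.89 and 8.71 TPM in lc_24h, and was itself called higher (log2 0.86 ± 0.32, adjusted p = 0.0188). The 2 IDs therefore moved in opposite directions, and reads could have been divided between them differently in cold and control larvae. That was not tested. Summed over both IDs, GABA-A beta-2 transcripts went from 18.5, 20.5 and 16.9 TPM in ctrl_96hpf to 15.8, 12.2 and 14.1 TPM in lc_24h. On this sum the gene was no longer called at 6 h (log2 -0.33 against ctrl_102hpf) or at 24 h (log2 -0.39 against ctrl_96hpf). At 12 h it was still called against ctrl_108hpf (log2 -0.66) but not against ctrl_96hpf (log2 -0.45).

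After 12 h of cold, 2 of 38 genes were called lower and none higher against ctrl_108hpf, beside 14.1% of all genes called lower and 5.77% higher. The second was gad2, an enzyme that makes GABA from glutamate, with 29.5, 31.8 and 32.9 TPM against 50.9, 49.8 and 46.7 TPM (log2 -0.63 ± 0.08, adjusted p = 1.74e-08). The groups did not overlap. The call of gad2 was lost when libraries were rescaled by the median of ratios. Against ctrl_96hpf, with 9.54% of all genes called lower and 5.56% higher, the pair called was gabrb2 and slc17a6a. The gene slc17a6a is a zebrafish copy of VGLUT2, which fills vesicles with glutamate. It had 15.7, 15.8 and 15.9 TPM against 24.3, 25.0 and 24.0 TPM (log2 -0.60 ± 0.06, adjusted p = 1.22e-11), with no overlap. The call of slc17a6a was lost under the median of ratios (log2 -0.45), under quantile normalization (log2 -0.52) and without ctrl_96hpf replicate 2 (log2 -0.58). The call of gabrb2 against ctrl_96hpf was lost on the sum of both IDs (log2 -0.45). The median change of the set against ctrl_108hpf was -0.23, and -0.16 over all genes. Receptor genes had a median of -0.44, transmitter genes -0.30, vesicle genes -0.16 and axon genes 0.16. Under the median of ratios the vesicle median turned to 0.03 and the other 3 kept their sign.

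Whether the effect of cold at 12 h differed from that at 6 h, each against its own controls, was tested as an interaction. None of the 38 was called, against 4.22% of all genes. By limma, 16 had an unadjusted p under 0.05 and 11 an adjusted p of at most 0.05, of which 10 were more negative at 12 h, beside 12.8% of all genes in either direction. The AMPA receptor gene gria2a was among them, at -0.09 after 6 h and -0.49 after 12 h (difference -0.40 ± 0.10, adjusted p = 0.0057). How many of all genes were more negative at 12 h was not counted. The median difference was -0.17 for vesicle, -0.28 for transmitter, -0.37 for receptor and 0.13 for axon genes. Under the median of ratios these were -0.04, -0.16, -0.24 and 0.26, so their size depends on the scaling.

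After 24 h of cold, 17 of 38 genes were called lower and none higher against ctrl_96hpf, in a comparison where 24.3% of all genes were called lower and 9.3% higher. Larvae of lc_24h were 120 hpf old, so age and cold cannot be told apart in this comparison. Untreated larvae of 132 hpf had no call against ctrl_96hpf. At an adjusted p of at most 0.05 with no fold minimum, 13 genes were lower and 4 higher in them on the scale as deposited. Transmitter genes made up 7 of the 17 (of 10), vesicle genes 5 (of 14), receptor genes 5 (of 9), and axon genes none (of 5). The median change was -0.46 for the set and -0.23 for all expressed genes. Samples did not overlap, with the cold samples lower, for 31 of 38 genes and for 47% of all genes. In bulk RNA of whole larvae, fewer neurons and less of a transcript in each neuron cannot be told apart.

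Of the 7 transmitter genes called at 24 h, slc6a5, chata, slc17a6a and slc32a1 had the largest changes on the gene IDs used. The glycine transporter slc6a5, which restocks glycine neurons, had 11.9, 10.9 and 10.54 TPM in lc_24h against 21.6, 21.1 and 20.6 TPM in ctrl_96hpf (log2 -0.86 ± 0.08, adjusted p = 4.45e-12). It was the 1 gene of the set also called lower against lc_12h (16.6, 18.5 and 17.8 TPM; log2 -0.62 ± 0.08), where 5.53% of all genes were (3.65% were called higher), and that call was lost without lc_12h replicate 2 or lc_24h replicate 3 and under both other scalings. The choline acetyltransferase gene chata, which makes acetylcholine, had 6.72, 5.79 and 6.15 TPM against 13.0, 12.7 and 10.1 TPM (log2 -0.84 ± 0.08). In both genes every cold sample lay well under every control sample. The vesicular glutamate transporter slc17a6a had 13.6, 13.0 and 13.4 TPM against 24.3, 25.0 and 24.0 TPM (log2 -0.82 ± 0.06, adjusted p = 4.89e-16). The vesicular transporter for GABA and glycine, slc32a1, had 17.4, 17.7 and 17.5 TPM against 31.9, 32.003 and 30.8 TPM (log2 -0.81 ± 0.09). These 2 vesicular transporters load the exciting and the inhibiting transmitters, and neither overlapped with its controls. The GABA transporter slc6a1b (log2 -0.71), the second vesicular glutamate transporter slc17a7a (-0.62) and gad2 (-0.60) were also called lower. On its main ID, slc17a7a had 10.7, 7.86 and 9.58 TPM in lc_24h. These overlapped with the 10.7, 8.88 and 11.6 TPM of untreated larvae at 132 hpf. Summed over its 2 gene IDs, slc17a7a had 12.0, 7.86 and 9.58 TPM against 18.6, 20.4 and 18.4 TPM. On that sum its change was larger (log2 -0.91) than that of slc6a5 given above. The other copy of VGLUT2 in the set, slc17a6b, was not called, with 23.3, 24.8 and 24.4 TPM against 27.8, 28.3 and 26.5 TPM (log2 -0.18 ± 0.06). Neither was gad1b, the other GABA-making enzyme (-0.34 ± 0.10), nor th (-0.36 ± 0.13).

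Of the 14 vesicle genes 5 were called. The gene furthest down was stxbp1b, a copy of Munc18-1 that chaperones the SNARE protein syntaxin, with 12.9, 13.8 and 13.3 TPM against 26.0, 24.7 and 25.5 TPM (log2 -0.88 ± 0.08, adjusted p = 1.39e-12). The synapsin gene syn2a, whose protein holds vesicles in reserve, had 36.1, 32.9 and 32.5 TPM against 57.1, 57.0 and 57.5 TPM (log2 -0.74 ± 0.06). The vesicle glycoprotein gene sv2a had 34.5, 32.3 and 33.2 TPM against 52.7, 56.0 and 52.9 TPM (log2 -0.68 ± 0.08). None of these 3 genes overlapped with its controls. The synapsin gene syn1 (log2 -0.66 ± 0.08) and stxbp1a (log2 -0.60 ± 0.07), the more abundant Munc18-1 copy, completed the 5. The other 9 vesicle genes were not called. The changes were -0.42 for snap25b, -0.37 for syt1a, -0.32 for vamp1 and -0.30 for nsfa, the ATPase that takes used SNARE complexes apart. The synapsin syn2b (-0.39) and sncb (-0.35) also stayed under the fold of 1.5, with sncb at 333, 319 and 339 TPM. The values of snap25a (-0.03 ± 0.07) and syt1b (0.02 ± 0.29) overlapped with those of the controls. The vesicle SNARE gene vamp2 had 115, 111 and 109 TPM in lc_24h against 94.5, 105 and 93.5 TPM (log2 0.19 ± 0.07), without overlap and without a call.

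Among receptor genes, gabrb2 was furthest down, as given above (log2 -1.21 ± 0.12 against ctrl_96hpf, adjusted p = 1.12e-11), on its main ID, and at -0.39 without a call on the sum of both IDs. The AMPA receptor genes gria2a and gria3a, for fast glutamate signals, were also called. The gene gria2a had 27.5, 25.4 and 27.2 TPM against 45.4, 49.2 and 43.3 TPM (log2 -0.76 ± 0.07), and gria3a had 37.9, 28.3 and 36.3 TPM against 59.1, 57.3 and 58.0 TPM (log2 -0.76 ± 0.10). Their groups were clearly apart. The NMDA receptor gene grin1b had 54.1, 43.6 and 51.9 TPM against 76.95, 83.2 and 76.3 TPM (log2 -0.66 ± 0.11, adjusted p = 3.66e-06), also without overlap. The glycine receptor gene glra1 was called at -0.61 ± 0.07. The copies gria2b (-0.53 ± 0.10) and grin1a (-0.49 ± 0.07) were under the fold and not called, although their cold samples also lay below every control sample. The scaffold gene dlg4b, which codes for PSD-95, and camk2a overlapped with their controls, at -0.15 ± 0.06 and -0.16 ± 0.10. For dlg4b this holds on the ID used, and a second ID of that name was nearly as abundant. Summed over both IDs, dlg4b had 31.2, 29.1 and 27.3 TPM against 34.8, 35.4 and 34.4 TPM, without overlap.

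No axon gene was called at 24 h. The neurofilament gene nefma, part of the skeleton of long axons, had 31.3, 30.3 and 29.4 TPM against 21.5, 22.7 and 21.4 TPM (log2 0.45 ± 0.05, adjusted p = 2.14e-09), so that every cold sample lay above every control sample while the fold stayed under 1.5. It had 24.7, 28.0 and 26.1 TPM at 12 h, above the 22.2, 20.5 and 19.6 TPM of ctrl_108hpf (log2 0.32 ± 0.05). The neuronal enolase gene eno2 had overlapping values (0.03 ± 0.05). The neurexin genes nrxn1a and nrxn2a, adhesion proteins of the presynapse, had changes of -0.42 ± 0.08 and -0.34 ± 0.08, and gap43 of -0.44 ± 0.07.

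The number of calls at 24 h rests on the scaling of the libraries. Rescaled by the median of ratios, which moves the median of all genes from -0.23 to -0.01, the calls were 4 lower (stxbp1b, slc6a5, chata and gabrb2) and 1 higher (nefma, log2 0.73), and the median of the set was -0.19. On that scale 14.1% of all genes were lower and 15.5% higher, against 24.3% and 9.3% as deposited. Relative to the median of all genes, gabrb2 was at -0.97, stxbp1b at -0.64, slc6a5 at -0.63 and chata at -0.60. The genes snap25a, slc17a6b, camk2a and dlg4b turned to positive values under the median of ratios (0.25, 0.09, 0.10 and 0.12), so a direction is given for none of them. Quantile normalization gave 13 calls, all lower, with 14.3% of all genes lower and 13.5% higher. Leaving out single samples gave 13 to 17 calls, with 13 without lc_24h replicate 2.

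**Figure D2:**
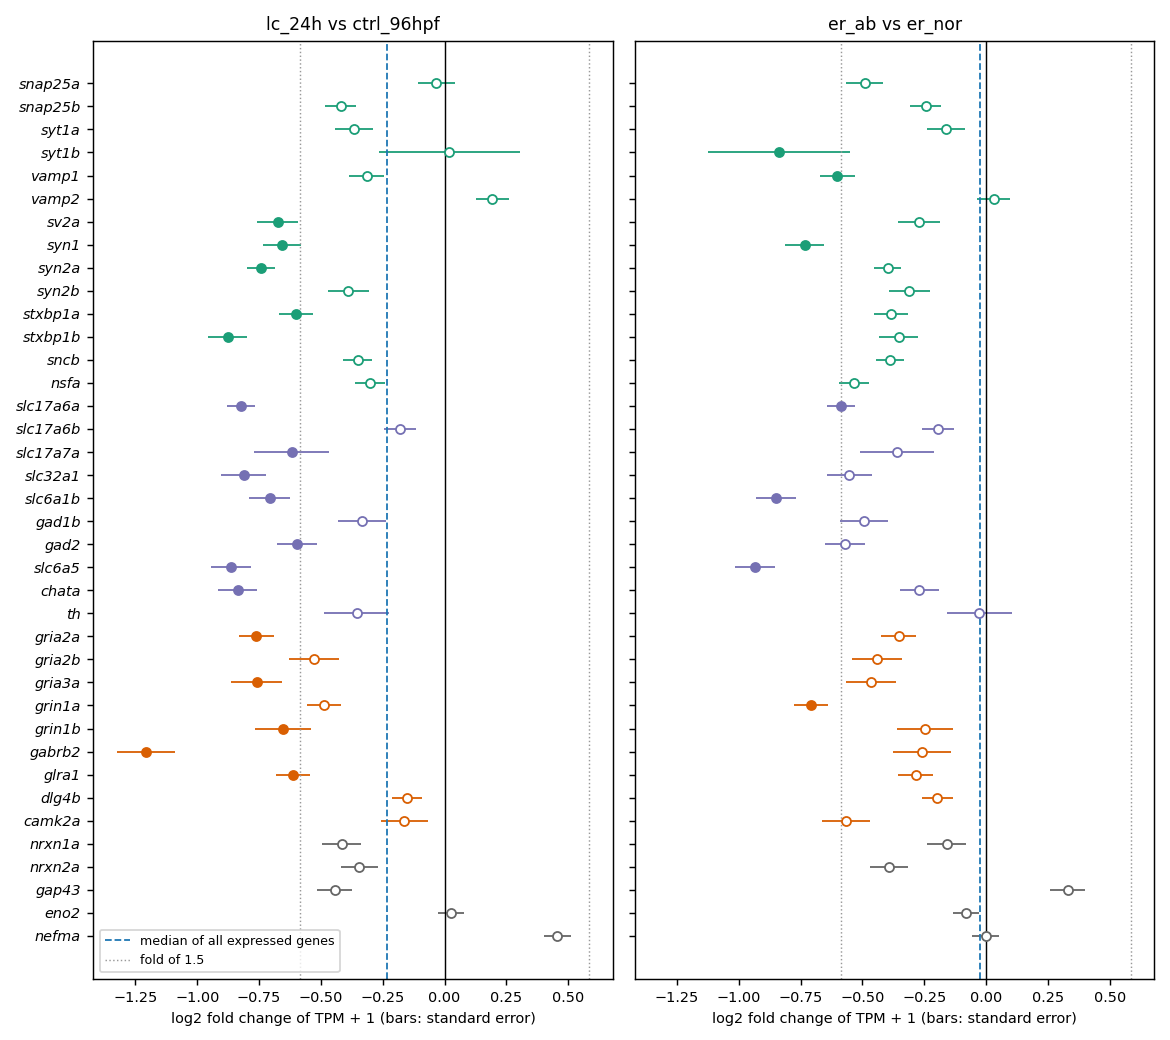
Log2 fold changes of the 38 genes in lc_24h against ctrl_96hpf (left) and er_ab against er_nor (right), with bars for the standard error, colours for the 4 roles and filled points for called genes. Dashed lines give the median of all expressed genes (-0.23 and -0.02) and dotted lines a fold of 1.5. The left panel has 17 filled points and the right panel 7, all to the left of 0.

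Markers of other cell types were read at 24 h of cold as well, beside 24.3% of all genes called lower and 9.3% higher. Of the other neuron genes on 5 lists, 65 of 242 were called lower and 10 higher (median -0.35). Of photoreceptor genes 9 of 30 were called lower and 3 higher, of neural progenitor genes 18 of 31 lower and 3 higher, and of glia and myelin genes 4 of 19 lower. Skeletal muscle genes summed to between 70428 and 74310 TPM in lc_24h and to between 61842 and 63640 TPM in ctrl_96hpf, with 1 of 22 called lower. None of the markers of these types was at 0. Their part in the values of the 38 genes was not tested.

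During rewarming gabrb2 was called higher at all 5 times against lc_12h. After 1 h at 28 °C it stood at 14.0, 13.7 and 12.7 TPM, above all samples of lc_12h (log2 0.93 ± 0.12, adjusted p = 1.5e-08), and at 2, 6, 12 and 24 h it had log2 changes of 1.20, 0.90, 1.096 and 1.33. In these 5 comparisons 12.3%, 14.1%, 16.6%, 15.8% and 13% of all genes were called higher, and no other gene of the set was. On the sum of both gene IDs the call held at 24 h alone (log2 0.77), and the changes at 1, 2, 6 and 12 h were 0.47, 0.48, 0.40 and 0.48. The one gene called lower was gap43 at 1 h, with 76.7, 81.5 and 84.7 TPM against 120, 129 and 123 TPM (log2 -0.61 ± 0.07, adjusted p = 2.3e-09), beside 4.55% of all genes. On the scale as deposited, none of the 38 was called lower at 2, 6, 12 or 24 h, where 6.55%, 5.24%, 5.5% and 7.15% of all genes were. Under the median of ratios gap43 was called lower at 2, 12 and 24 h and nefma at 6 and 12 h. On that scale 9.34%, 8.86%, 8.71% and 9.20% of all genes were lower at 2, 6, 12 and 24 h. Quantile normalization also called nefma lower at 6 and 12 h, beside 8.78% and 8.45% of all genes. Without lc_12h replicate 2, or without re_1h replicate 1, there was 1 call at 1 h in place of 2.

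Genes that were not called during rewarming took different courses. The glutamate transporter slc17a6a had 15.6, 17.4 and 17.0 TPM at 1 h of rewarming, 19.2, 20.9 and 20.0 TPM at 6 h, and 22.7, 22.4 and 22.2 TPM at 12 h. It first lay above all samples of lc_12h at 6 h. The AMPA receptor gene gria2a was already at 43.0, 42.9 and 43.9 TPM at 1 h, above the 33.3, 33.6 and 33.6 TPM of lc_12h. The AMPA receptor gene gria3a went down first, with 35.9, 34.6 and 35.2 TPM at 1 h, below the 44.7, 43.2 and 45.3 TPM of lc_12h (log2 -0.32 ± 0.10), and was at 58.1, 52.5 and 57.9 TPM at 12 h. The scaffold gene dlg4b was high at 1 h, with 25.3, 26.1 and 24.2 TPM against 16.7, 19.2 and 17.5 TPM in lc_12h (log2 0.48 ± 0.06, not called), and 16.5, 16.3 and 16.3 TPM at 6 h. These 3 receptor and scaffold genes were thus apart from lc_12h within 1 h, in different directions. Such a gap was common at that time, with 31.1% of all genes apart and higher and 20.6% apart and lower. In the set 7 genes were apart and higher and 14 apart and lower. The neurofilament gene nefma went from its cold level to 17.7, 17.6 and 16.8 TPM at 6 h. After 24 h none of the 38 was called against ctrl_132hpf, which has the same age. There limma called 6.08% of all genes, and 7 genes of the set had an unadjusted p under 0.05. At an adjusted p of at most 0.05 with no fold minimum the set had 3 genes, beside 24.3% of all genes. The median difference of the set was 0.00. The smallest adjusted p was that of gria2b, with 36.9, 38.9 and 43.2 TPM against 47.1, 50.1 and 52.8 TPM (log2 -0.33 ± 0.10, adjusted p = 0.0129), without overlap.

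**Figure D3:**
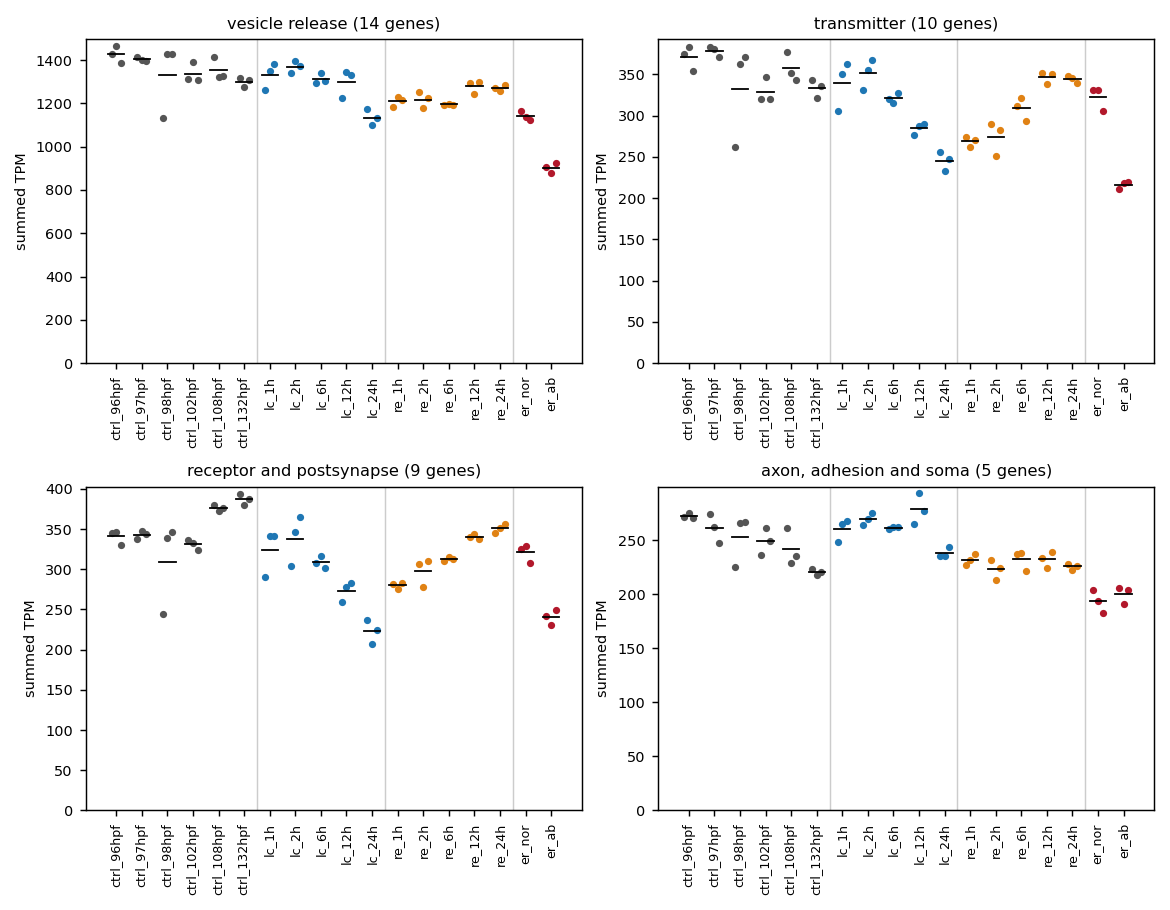
Summed TPM of the genes of each role in every sample (points) with the group mean (line), for the 18 groups in grey (ctrl), blue (lc), orange (re) and red (er). Transmitter genes went from 371 TPM in ctrl_96hpf to 246 TPM in lc_24h, stood at 345 TPM in re_24h, and were at 323 TPM in er_nor and 217 TPM in er_ab.

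After 24 h of cold and 24 h of rewarming, larvae that swam normally had none of the 38 called against untreated ones. The count was 0 between er_nor and ctrl_132hpf, which is 12 h younger, where limma called 13.4% of all genes. By an unadjusted p under 0.05 there were 23, and 18 kept an adjusted p of at most 0.05 without reaching the fold, 2 of them higher and 16 lower, beside 28.3% and 12% of all genes. The median difference was -0.15 for the set and 0.09 for all genes. Samples of er_nor lay wholly below those of ctrl_132hpf for 21 genes and wholly above for 2, beside 16.5% and 33.2% of all genes. Against lc_24h, the group at the end of the same exposure, 6 genes were called higher and 1 lower, beside 25.9% and 8.61% of all genes. The acetylcholine gene chata had 14.5, 15.12 and 13.3 TPM (log2 1.09 ± 0.08, adjusted p = 4.76e-15), above the 6.72, 5.79 and 6.15 TPM of lc_24h. The gene gabrb2 was at 12.3, 13.8 and 15.9 TPM (log2 1.16 ± 0.12), a change of 0.32 and no call on the sum of both IDs. The other 4 called higher were stxbp1b (0.66), gria2b (0.60), gad2 (0.59) and grin1b (0.59). The neurofilament gene nefma fell to 16.1, 14.7 and 13.3 TPM (log2 -1.002 ± 0.05, adjusted p = 6.1e-19), and the 2 groups were far apart. With the median of ratios the calls were 2 higher (chata and gabrb2) and 3 lower (gap43, eno2 and nefma), beside 16.4% and 15.08% of all genes. Without er_nor replicate 1 there were 4 calls in place of 7, and without lc_24h replicate 1 there were 9.

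Abnormal larvae had less of most of these transcripts than normal ones. Of 38 genes 7 were called lower in er_ab than in er_nor and none higher, while 4.74% of all genes were called lower and 5.58% higher. Samples of er_ab lay entirely below those of er_nor for 31 of 38 genes and for 23.6% of all genes. The median difference was -0.37 for the set and -0.02 for all genes. Transmitter genes had a median of -0.52, vesicle genes of -0.39, receptor genes of -0.35 and axon genes of -0.08. These signs held under both other scalings, which gave 5 calls (median of ratios) and 8 calls (quantile normalization).

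The largest differences were those of slc6a5 and slc6a1b. The glycine transporter slc6a5 had 8.63, 8.43 and 7.85 TPM in er_ab against 16.5, 18.2 and 15.7 TPM in er_nor (log2 -0.94 ± 0.08, adjusted p = 2.49e-12). The GABA transporter slc6a1b had 40.5, 40.5 and 41.4 TPM against 78.2, 73.8 and 71.0 TPM (log2 -0.85 ± 0.08, adjusted p = 3.87e-11). In both genes the 3 abnormal samples lay close together and far below the normal ones. The glutamate transporter slc17a6a had 12.2, 12.8 and 14.0 TPM against 20.1, 20.5 and 19.3 TPM (log2 -0.59 ± 0.06, adjusted p = 3.45e-11). It was just past the fold, and the call was lost with the median of ratios (log2 -0.57) and without er_ab replicate 1 (-0.54), er_ab replicate 2 (-0.58), er_nor replicate 1 (-0.58) or er_nor replicate 2 (-0.57). Just inside the fold lay gad2 (-0.57), slc32a1 (-0.55) and gad1b (-0.50), none of which overlapped. The gene chata, in contrast, had 11.5, 12.2 and 11.3 TPM against 14.5, 15.12 and 13.3 TPM (log2 -0.27 ± 0.08), and th overlapped (-0.03 ± 0.13).

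Of the vesicle genes, syn1 had 13.3, 14.1 and 14.1 TPM in er_ab against 24.9, 24.5 and 21.7 TPM in er_nor (log2 -0.73 ± 0.08, adjusted p = 3.83e-10), and vamp1 had 35.4, 33.9 and 32.6 TPM against 56.5, 50.0 and 49.8 TPM (log2 -0.60 ± 0.07). No abnormal sample reached a normal one in either gene. The call of vamp1 was lost with the median of ratios (log2 -0.58), without er_ab replicate 3 (-0.57) and without er_nor replicate 1 (-0.54). The low gene syt1b was called with 1.59, 1.76 and 2.30 TPM against 3.67, 2.77 and 6.62 TPM (log2 -0.84 ± 0.29, adjusted p = 0.0196). The call of syt1b was lost in limma's fit to the 2 compared groups alone (adjusted p = 0.06) and without er_ab replicate 1 (adjusted p = 0.0696), er_ab replicate 2 (adjusted p = 0.0527) or er_nor replicate 3 (adjusted p = 0.178). Its normal samples were spread widely, and it was not among the genes tested with a filter at 5 TPM. The genes nsfa (-0.53), snap25a (-0.49), syn2a (-0.40), sncb (-0.39), stxbp1a (-0.38), stxbp1b (-0.35), syn2b (-0.31), sv2a (-0.27), snap25b (-0.24) and syt1a (-0.16) had lower values without a call. The vesicle SNARE gene vamp2 was level, with 124, 122 and 123 TPM in er_ab and 124, 122 and 115 TPM in er_nor. Both groups lay above all samples of ctrl_132hpf (91.3, 88.5 and 85.7 TPM), by 0.47 ± 0.07 and 0.44 ± 0.07 on the log2 scale.

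Of the receptor genes only grin1a was called, with 33.2, 31.8 and 32.1 TPM in er_ab against 54.6, 55.4 and 50.5 TPM in er_nor (log2 -0.71 ± 0.07, adjusted p = 6.59e-11). Its partner copy grin1b had 61.3, 60.1 and 68.4 TPM against 75.6, 77.6 and 72.4 TPM (log2 -0.25 ± 0.11, adjusted p = 0.0872). The other receptor genes ranged from camk2a (-0.57) over gria3a (-0.46), gria2b (-0.44), gria2a (-0.35), glra1 (-0.28) and gabrb2 (-0.26) to dlg4b (-0.20). Among axon genes, nrxn2a was at -0.39 and nrxn1a at -0.16, while eno2 and nefma overlapped. The growth gene gap43 stood apart from the rest, with 88.1, 81.2 and 87.0 TPM in er_ab above 70.7, 66.8 and 65.6 TPM in er_nor (log2 0.33 ± 0.07, adjusted p = 0.000246, not called).

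**Figure D4:**
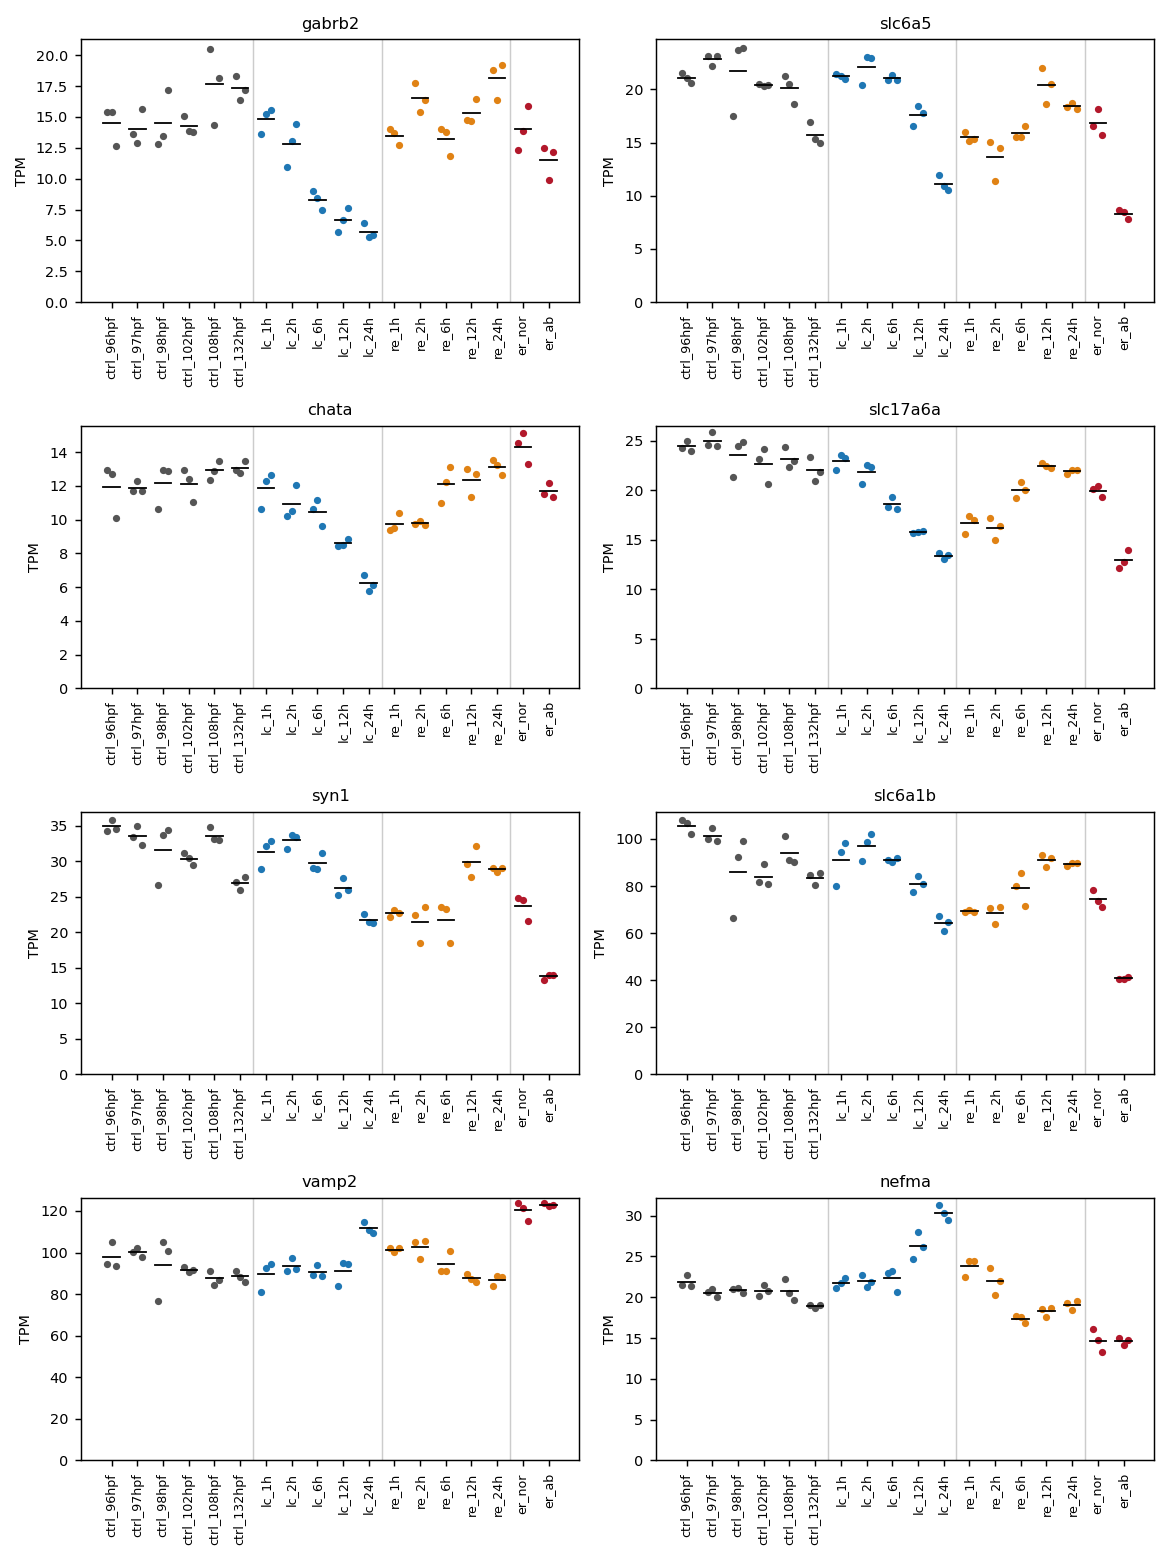
TPM of 8 genes in every sample (points) with group means (lines), for the 18 groups. The genes slc6a5, syn1 and slc6a1b were lowest in er_ab, gabrb2 and chata lowest in lc_24h, nefma highest in lc_24h (31.3, 30.3 and 29.4 TPM) and vamp2 highest in er_ab (124, 122 and 123 TPM). For gabrb2 the points are those of its main ID. Summed over both IDs, its means were 13.1 TPM in lc_6h, 13.4 TPM in lc_12h and 14.0 TPM in lc_24h.

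Set against ctrl_132hpf, er_ab had 17 of 38 genes called lower and none higher, beside 8.32% and 16.4% of all genes. The median of the set was -0.56 and that of all genes 0.06. Vesicle genes accounted for 7 of the calls, transmitter genes for 5 and receptor genes for 5. The gene grin1a was at 69.2, 66.3 and 67.4 TPM in ctrl_132hpf (log2 -1.04 ± 0.07), slc6a1b at 84.6, 80.5 and 85.5 TPM (log2 -1.02 ± 0.08), and syn1 at 27.0, 26.0 and 27.8 TPM (log2 -0.92 ± 0.08). In each gene the control samples lay above all er_ab samples given before. Against lc_24h, 5 genes were called lower (syn1, sncb, nsfa, slc6a1b and nefma) and 2 higher (chata and gabrb2), beside 10.7% and 27.3% of all genes. The abundant vesicle gene sncb went from 333, 319 and 339 TPM to 212, 205 and 235 TPM (log2 -0.61 ± 0.06). The 7 calls became 13, with 11 lower, under the median of ratios, beside 17.5% of all genes lower and 18.7% higher. The gene gabrb2 was at 0.17 on the sum of both IDs and was not called.

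Values of other cell types moved beside these, in the comparison with 4.74% of all genes lower and 5.58% higher. Photoreceptor genes had 22 of 30 called lower in er_ab than in er_nor and summed to between 2408 and 2499 TPM against 5081 to 5272 TPM. Glia and myelin genes had 8 of 19 called lower and 1 higher and summed to between 1396 and 1442 TPM against 1736 to 1837 TPM. Neural progenitor genes had 4 of 31 called lower and summed to between 784 and 871 TPM against 1324 to 1355 TPM, without overlap. Skeletal muscle genes had none of 22 called and overlapping sums (54875 to 58597 TPM and 53186 to 57056 TPM), while 2 of 14 islet genes were called higher. None of the defining markers of these types was at 0, and the lowest sample of rho, the rod opsin, was at 567 TPM. The part of these cell types in the values of the 38 genes was not tested.

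Some related genes did not keep their proportions, which can be read within a library and does not depend on its scaling. The ratio of slc17a6a to slc17a6b was 0.88, 0.88 and 0.90 in ctrl_96hpf and 0.59, 0.53 and 0.55 in lc_24h. It was 0.76, 0.73 and 0.76 in er_nor and 0.53, 0.55 and 0.60 in er_ab. The ratio of vamp1 to vamp2 was 0.69, 0.60 and 0.65 in ctrl_96hpf, 0.46, 0.42 and 0.48 in lc_24h, and 0.29, 0.28 and 0.27 in er_ab, against 0.46, 0.41 and 0.43 in er_nor. The ratio of grin1a to grin1b was 0.72, 0.71 and 0.70 in er_nor and 0.54, 0.53 and 0.47 in er_ab. At 24 h of cold this last ratio went the other way, to 0.76, 0.89 and 0.77 against 0.71, 0.69 and 0.74. The ratio of stxbp1a to stxbp1b was 4.59, 4.69 and 4.43 in ctrl_96hpf and 6.78, 5.02 and 5.43 in lc_24h, while in er_ab (3.55, 3.52 and 3.12) and er_nor (3.21, 3.58 and 3.51) it overlapped. The pairs gria2a and gria2b (means 0.96 and 1.03) and syn2a and syn2b (3.46 and 3.30) also overlapped between er_nor and er_ab. Between ctrl_96hpf and lc_24h the ratios of gria2a to gria2b and of syt1a to syt1b overlapped. The ratio of snap25a to snap25b was 0.94, 0.99 and 1.04 in ctrl_96hpf and 1.35, 1.34 and 1.19 in lc_24h. That of lc_24h overlapped with ctrl_132hpf (1.24, 1.31 and 1.36). In er_ab it was 1.11, 1.04 and 1.02, against 1.15, 1.25 and 1.37 in er_nor. For syn2a to syn2b it was 3.70, 3.26 and 3.80 in ctrl_96hpf and 2.90, 3.00 and 2.59 in lc_24h. For syt1a to syt1b it was 51.9, 49.1 and 37.3 in er_ab and 26.6, 35.3 and 13.5 in er_nor. In the other comparisons of ratios given above, the 3 ratios of one group lay apart from the 3 of the other. How often other gene pairs lay apart was not counted. No test was made on ratios.

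**Figure D5:**
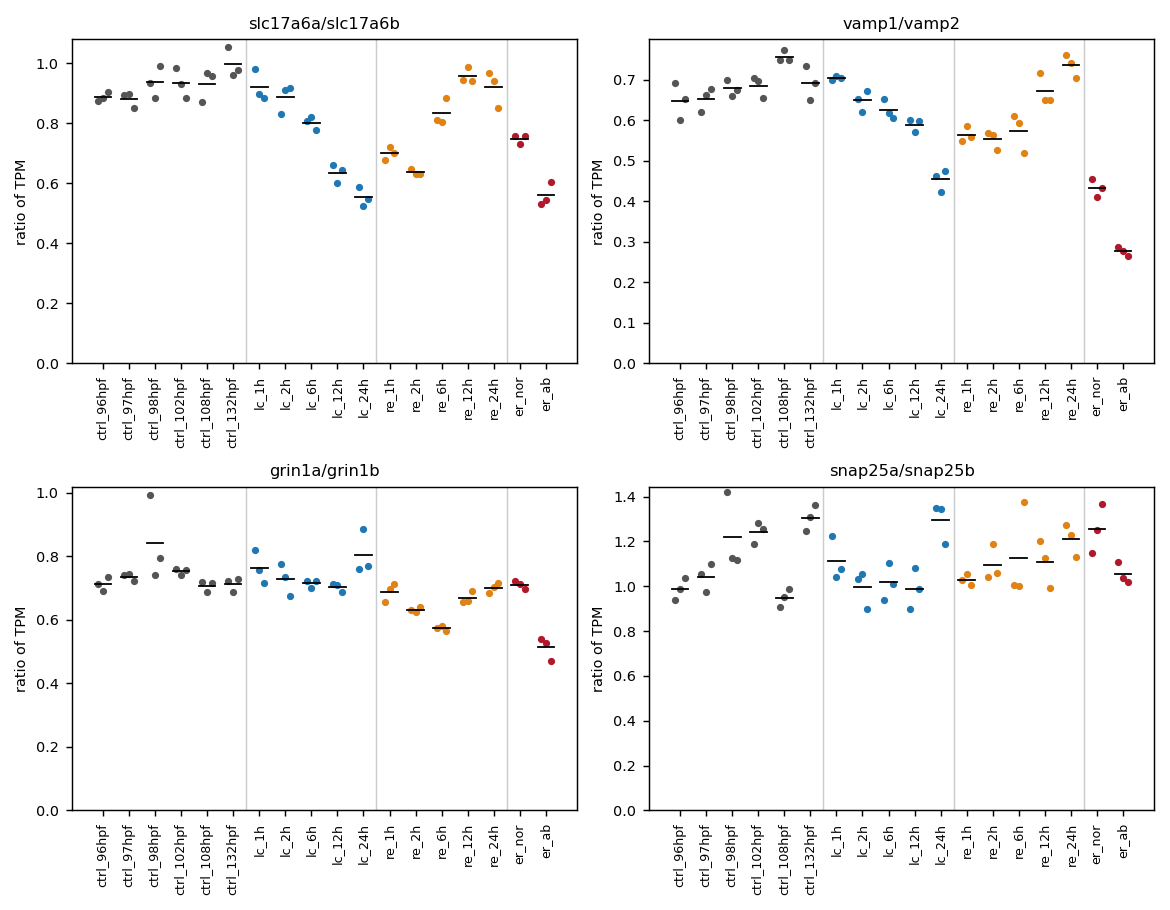
Ratio of the TPM of 2 related genes within each sample (points) with group means (lines), for the 18 groups. The ratios of slc17a6a to slc17a6b and of vamp1 to vamp2 were lower in lc_24h (means 0.55 and 0.45) than in ctrl_96hpf (0.89 and 0.65) and lower in er_ab (0.56 and 0.28) than in er_nor (0.75 and 0.43).

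Of the 17 genes called lower in lc_24h against ctrl_96hpf and the 7 called lower in er_ab against er_nor, which share no samples, 4 were the same: syn1, slc17a6a, slc6a1b and slc6a5. That is 23.5% of the first list and 57.1% of the second. Over all expressed genes 350 were lower in both, which is 5.68% of the 6157 lower in the first and 29.1% of the 1204 lower in the second. The shared genes depended on the scaling. Under the median of ratios slc6a5 alone was called lower in both, and under quantile normalization slc17a6a, slc6a1b and slc6a5 were. Over the 26 comparisons 27 of the 38 were called at least once, beside 72.4% of all genes. The 11 that never were are snap25b, syt1a, vamp2, syn2b, slc17a6b, gad1b, th, dlg4b, nrxn1a, nrxn2a and eno2.

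Further genes of the same pathways, on lists that leave the 38 out, had both directions. After 24 h of cold 14 of 26 other transmitter genes were called lower and 1 higher, beside 24.3% and 9.3% of all genes. Lower were slc18a3a, which fills vesicles with acetylcholine (14.8 ± 0.842 to 6.92 ± 0.667 TPM, mean ± SD, n = 3; adjusted p = 7.39e-16), and gphnb, a copy of gephyrin, the scaffold of glycine receptors (25.8 to 10.8 TPM; log2 -1.18). Of other vesicle genes 13 of 47 were called lower and 1 higher, with amph, amphiphysin of vesicle recycling, at 47.2 and then 18.6 TPM (log2 -1.30). Of other receptor genes 10 of 69 were lower and 2 higher. Ion channel genes had 7 of 43 lower and 5 higher. The potassium channel gene kcna1b went from 1.39 ± 0.195 to 7.22 ± 1.49 TPM (log2 1.77, adjusted p = 7.46e-14), and kcnc1a, a channel of fast-firing neurons, from 17.4 to 6.42 TPM (log2 -1.31). Of cytoskeletal and pan-neuronal genes 21 of 57 were lower and 1 higher. The higher one was stmn4l, a stathmin-like gene, from 37.2 ± 4.24 to 151 ± 5.02 TPM (log2 2.00).

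Between er_ab and er_nor the same lists had 10 of 47 vesicle genes, 6 of 26 transmitter genes, 4 of 69 receptor genes, 6 of 43 channel genes and 14 of 57 cytoskeletal genes called lower, and 0, 1, 0, 0 and 3 called higher, beside 4.74% and 5.58% of all genes. The complexin gene cplx4a, a clamp of vesicle fusion, was at 16.8 ± 1.08 against 35.7 ± 1.03 TPM (log2 -1.04). The GABA transporter slc6a11b was at 19.0 against 42.3 TPM (log2 -1.12), and ache, which breaks acetylcholine down, at 46.9 against 81.2 TPM (log2 -0.78). Higher in er_ab were abat, the enzyme that degrades GABA (195 ± 8.54 against 86.4 ± 6.14 TPM; log2 1.17), and stmn4l (122 ± 3.57 against 33.8 ± 2.63 TPM; log2 1.82). The 5 lists had medians of -0.36, -0.27, -0.22, -0.30 and -0.30 in that order, beside -0.02 for all genes. The summed levels of the other transmitter genes overlapped, with 465, 468 and 480 TPM in er_ab and 485, 496 and 466 TPM in er_nor. That sum includes abat, which was higher by a large part of it, while 6 of the 26 genes were called lower. The overlap therefore does not show that the rest of the list was level.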

How the data were processed

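The authors mapped reads of 54 libraries to Ensembl cDNA with Salmon 0.13.1, with bias corrections, and summed transcripts to genes with tximport. The deposited values are TPM. Each of the 54 columns was matched to its sample by name. On the log2(TPM + 1) scale, a limma model (version 3.58.1, R 4.3.3) had a mean for each of 18 groups, a mean-variance trend and 36 residual degrees of freedom, for 25387 of 30097 genes, and p-values were adjusted by Benjamini-Hochberg over all of them. There were 26 comparisons and 1 interaction. The fit was tested on simulated data.

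The 38 genes, their roles and the 11 lists of other genes were chosen with earlier results of these data known. Single-sample values are given for up to 4 called genes with the largest change in each role and comparison, the most abundant gene of each role and related pairs, and other genes by the smallest adjusted p in their list. No row had the exact name gabrb2, which was matched through a table of gene IDs to the ID named gabrb2a. Alternatives were pseudocounts of 0.1 and 0.5, no filter, a filter at 5 TPM, quantile normalization, scaling by the median of ratios, no trend, a fit to the compared groups alone, a replicate block, IDs summed and each replicate left out. Single-sample values of uncalled genes outside these rules (such as vamp2, nefma, dlg4b and gria3a in some comparisons) were chosen after seeing them, and a call with no fold minimum was added after seeing the data.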

Additional observations from a re-analysis of the deposited data

How the results depend on the processing

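Of 1087 alternatives for the 68 single-gene calls, 1009 kept the call, 78 fell below a threshold and 0 reversed. Of 438 alternatives for counts of calls, 400 stayed within 1.5 times and 38 did not. The 400 include every count that was 0 and stayed 0, so they do not measure how firm the counts above 0 were. A pseudocount of 0.1 gave 2 calls in re_6h and 2 in re_24h against lc_12h and 1 in the interaction, and a pseudocount of 0.5 gave 2 in re_24h and 1 in the interaction. Median of ratios gave 1 in lc_12h against ctrl_96hpf, 5 in lc_24h against ctrl_96hpf, 1 in lc_12h against ctrl_108hpf, 0 in lc_24h against lc_12h, 2, 2, 3 and 2 in re_2h, re_6h, re_12h and re_24h, and 13 in er_ab against lc_24h. Quantile normalization gave 1 in lc_12h against ctrl_96hpf, 0 in lc_24h against lc_12h, 2 and 2 in re_6h and re_12h, and 3 in er_nor against lc_24h. With IDs of a name summed there were 0 in lc_6h against either control, 1 in lc_12h against ctrl_96hpf, 1 in re_1h, and 0 in re_2h, re_6h and re_12h.

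Without a fold minimum, chosen after seeing the data, the calls against ctrl_96hpf were 3, 4, 1 and 17 at 98, 102, 108 and 132 hpf and 12, 23 and 34 in lc_6h, lc_12h and lc_24h, beside 1.22%, 7.18%, 9.53%, 37.6%, 20.5%, 43.2% and 63.6% of all genes in either direction. Against same-age controls they were 2, 7 and 26 in lc_2h, lc_6h and lc_12h, beside 4.43%, 26.8% and 50.7%. Against lc_12h they were 24 in lc_24h and 15, 16, 16, 20 and 21 from re_1h to re_24h, beside 37.4%, 43.9%, 49.3%, 52.8%, 53.2% and 50.1%, and there were 3 in re_24h against ctrl_132hpf, beside 24.3%. They were 29 in er_ab against er_nor, 23 and 24 in er_nor and er_ab against lc_24h, 18 and 31 in these groups against ctrl_132hpf, and 11 in the interaction, beside 34.9%, 64.9%, 66.5%, 40.2%, 54.6% and 12.8%.

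Leaving out 1 sample gave 1 to 2 calls in lc_12h and 13 to 17 in lc_24h against ctrl_96hpf, 0 to 1 in lc_24h against lc_12h, 1 to 2 in each of re_1h, re_6h and re_24h, 5 to 8 in er_ab against er_nor, 4 to 9 in er_nor and 5 to 8 in er_ab against lc_24h, 16 to 19 in er_ab against ctrl_132hpf, and 0 to 1 in the interaction. The higher count came without lc_12h replicate 1 in re_6h and without re_24h replicate 3 in re_24h. In the interaction it came without ctrl_102hpf replicate 1, ctrl_108hpf replicate 2, lc_6h replicate 3 or lc_12h replicate 3. Replicate numbers did not pair samples (459 pairs, median r -0.0016, 1 over 0.1), and the replicate block left 17 calls in lc_24h against ctrl_96hpf and 7 in er_ab against er_nor and changed no other count. Except where named, the cause of a change was not tested. Low genes such as syt1b and th have the least precise values.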
